A study of Mus musculus with 6 samples.

Results

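Wnt signalling was examined through 43 genes that encode 12 Wnt ligands, 10 frizzled receptors, 2 LRP co-receptors, 5 secreted antagonists, 2 R-spondins, 6 feedback inhibitors that are also target genes, 4 nuclear effectors and 2 proteins of ligand secretion. They were picked by symbol from the deposited normalized table, which has 24521 genes, and their raw counts were joined by gene identifier. All 43 were found, and 41 had enough reads to be tested among 19042 genes. Wnt10b (0.167 to 0.587 CPM over the 6 libraries) and Fzd9 (0.0467 to 0.768 CPM) were not tested. CPM here is the read count scaled to a common library size, with a correction for library composition.

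Gene expression was measured by poly(A) RNA sequencing of whole lung lobes from mouse embryos at E18.5, dissected before the lungs had filled with air. The 3 wild-type and 3 Mll3FDC/FDC (Mll3 KO) libraries held 20158689 to 23305306 reads, and 1 CPM stood for 20.4 to 23.9 reads. Mll3, the product of Kmt2c, is a histone H3 lysine methyltransferase that acts at enhancers. What the FDC allele removes, the strain and the parentage are not given in the sources used here, nor is it stated whether each library came from a separate embryo, so the p-values cover only the spread among the libraries, which may be technical. Kmt2c was 168 ± 9.58 CPM (SD, n = 3) in wild type and 158 ± 14.2 CPM (n = 3) in knockout libraries, with an edgeR adjusted p of 0.737. That count runs over the whole gene and does not check the genotype. No library was a copy of another: within a genotype, the chi-square of a pair over its degrees of freedom was 8.49 to 21.1. Knockout 3 had 59951 Xist reads and 4 reads of Y-linked genes, against 6 to 27 and 7414 to 9300 in the other 5 libraries. By these reads knockout 3 was female and the other 5 were male, so it came from another embryo than knockout 1 and 2. For libraries of the same sex and genotype, these reads do not settle whether the embryos were separate. The lung was recognisable from its markers, with summed CPM of 10 alveolar type 2 genes at 20490 to 25510. Wild type 1 held 632 CPM of 10 squamous epithelium markers, against 2.75 to 32.2 in the other libraries. The 10 skeletal muscle markers summed to 557 CPM in wild type 1 and 587 in knockout 2, against 26.2 to 42.5 elsewhere.

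Wnt proteins are lipid-modified secreted signals. In the canonical branch a Wnt binds a frizzled and LRP5 or LRP6, the complex that destroys beta-catenin is blocked, and beta-catenin enters the nucleus and acts with TCF and LEF factors on target genes, several of which encode inhibitors of the same pathway. In the fetal lung, Wnt2 and Wnt2b of the mesenchyme specify lung fate, Wnt7b of the epithelium drives growth of the mesenchyme and vessels, and Wnt5a acts mainly through the branch that does not use beta-catenin.

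Wif1, Wnt3a and Nkd2 were the members whose 3 knockout libraries all lay below the 3 wild-type libraries. Their promoters are shown for that reason, together with a promoter of Lef1 that was picked because it holds the core bound by TCF and LEF factors. Each runs from 250 bases before to 50 bases after a transcription start on GRCm38.p6 (RefSeq), 5′ to 3′ on the gene's strand, in lower case, with the core in capitals where it occurs. The Wif1 promoter lies at chr10:121033754-121034053 (+), that of Wnt3a at chr11:59290702-59291001 (-), that of Nkd2 at chr13:73847582-73847881 (-) and that of Lef1 at chr3:131156044-131156343 (+).
Wif1: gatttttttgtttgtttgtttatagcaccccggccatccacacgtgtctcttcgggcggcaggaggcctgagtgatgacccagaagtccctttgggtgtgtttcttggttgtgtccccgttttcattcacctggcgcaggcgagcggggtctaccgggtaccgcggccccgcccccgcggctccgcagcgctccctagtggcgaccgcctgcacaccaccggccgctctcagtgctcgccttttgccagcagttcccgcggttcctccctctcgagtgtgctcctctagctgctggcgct
Wnt3a: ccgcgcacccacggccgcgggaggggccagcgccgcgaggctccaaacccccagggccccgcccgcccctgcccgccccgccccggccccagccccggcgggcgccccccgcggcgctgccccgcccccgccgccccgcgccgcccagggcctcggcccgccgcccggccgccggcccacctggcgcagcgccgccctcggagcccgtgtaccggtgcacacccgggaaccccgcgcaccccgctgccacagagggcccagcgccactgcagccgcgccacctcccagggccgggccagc
Nkd2: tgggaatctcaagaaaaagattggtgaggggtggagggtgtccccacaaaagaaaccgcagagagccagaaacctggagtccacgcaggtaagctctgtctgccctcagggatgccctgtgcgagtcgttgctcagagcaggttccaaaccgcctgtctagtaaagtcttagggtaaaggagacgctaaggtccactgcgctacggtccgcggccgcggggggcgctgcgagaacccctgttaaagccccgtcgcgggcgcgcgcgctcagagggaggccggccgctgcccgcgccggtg
Lef1: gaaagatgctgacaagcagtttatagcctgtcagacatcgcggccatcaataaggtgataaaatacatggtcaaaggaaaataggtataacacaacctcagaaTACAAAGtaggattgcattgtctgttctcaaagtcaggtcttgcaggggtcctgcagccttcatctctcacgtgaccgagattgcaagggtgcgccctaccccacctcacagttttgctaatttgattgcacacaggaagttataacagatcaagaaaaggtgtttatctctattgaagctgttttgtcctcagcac

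The core was searched on both strands as CTTTG followed by AA, AT, TA or TT, which are 7 letters in all. None of the Wif1, Wnt3a and Nkd2 windows held these letters, and neither did that of Axin2. Of 43 members, 28 matched the promoter table, with 38 promoters. Fzd7, Lef1, Tcf7l2, Wnt11 and Wnt5b had a match, which is 17.9% of the 28 genes, against 18.9% of all 27025 genes in the table. For Lef1, Tcf7l2, Wnt11 and Wnt5b it was in 1 promoter only. Their other promoters, those of Lef1 near the gene start included, held no match. The Wnt3a window had 86.3% G and C and the Wif1 window 63.0%, and the median over all promoters was 52.7%. The window of Axin2, whose level overlapped between the genotypes, had 70.0%, more than that of Wif1. A match describes letters only, and the absence of one says nothing about the factor.

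Most members differed little between the genotypes. The median log2 fold change of the 41 tested members (knockout over wild type) was -0.0036, against 0.01 over all genes tested, and the median absolute log2 fold change was 0.0914 against 0.1139. With edgeR's quasi-likelihood test and Benjamini-Hochberg adjustment over all 19042 genes, 1 member (Wif1, 2.44% of those tested) fell, 0 rose, and 40 did not pass 0.05. In the background, 0.305% of all genes fell and 0.063% rose. At an unadjusted p under 0.05 there were 5 members (Wif1, Wnt3a and Nkd2 lower, Wnt2b and Rspo2 higher), which is 12.2% of those tested, near the 10.7% of all genes. DESeq2 called Wif1 and Wnt3a lower and no member higher, where it called 1.55% of all genes lower and 0.326% higher. The 3 wild-type and 3 knockout libraries did not overlap in 3 members that were lower (7.32%, against 8.45% of all genes) and in 2 that were higher, Rspo2 and Wls (4.88%, against 8.6%). These shares are close to or below those of all genes. The 95% confidence interval of the log2 fold change lay within ±0.5 for 27 of the 41 members (65.9%), against 58.2% of all genes.

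**Figure D1:**
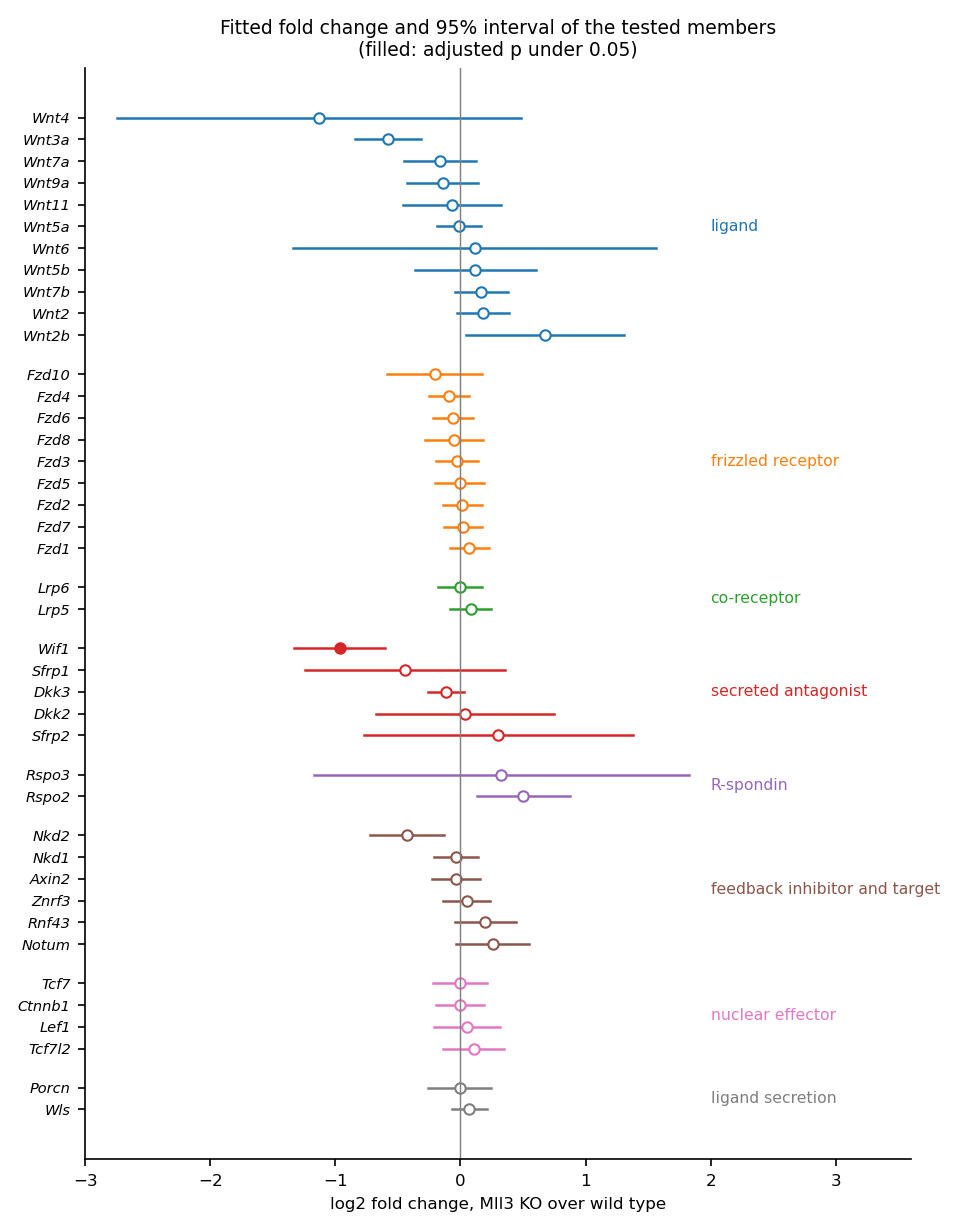
Fitted log2 fold change (x axis, Mll3 KO over wild type) and 95% confidence interval of the 41 tested members, grouped by role. Wif1 has the only filled point, while the intervals of the frizzleds, co-receptors and nuclear effectors include 0 and, except that of Fzd10, lie within ±0.5.

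Among the secreted antagonists, Wif1 fell and the other 4 did not pass. Wif1 (WNT inhibitory factor 1) binds Wnt proteins outside the cell. The gene spans chr10:121033960-121100650 on the plus strand. It was at 8.85, 7.89 and 7.01 CPM in wild type 1, 2 and 3 (196, 181 and 149 reads) and at 3.47, 4.50 and 4.20 CPM in knockout 1, 2 and 3 (83, 92 and 90 reads). Every knockout library was thus below every wild-type library. The log2 fold change was -0.97 (95% interval -1.33 to -0.60), a level of 0.512 of wild type, with an edgeR adjusted p of 0.0441. That value lies just under the threshold: limma voom gave 0.0674, scaling by library size alone 0.0503, and each of the 6 fits without 1 library 0.0776 to 0.17, with log2 fold changes of -1.05 to -0.87. Leaving out knockout 3, the library with Xist reads, gave -0.996 and an adjusted p of 0.106.

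The sample titles carry 2 prefixes whose meaning is not stated, AK7986 (wild type 1 and 2, knockout 1) and AK7987 (wild type 3, knockout 2 and 3). The log2 differences of Wif1 within them were -1.24 and -0.68. Their sign was fixed in advance, because every knockout library lay below every wild-type library for Wif1. With the prefix as a term the adjusted p of Wif1 was 0.0164 in edgeR, a fit that called 2.54% of all genes lower and 0.746% higher.

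Markers of alveolar type 1 cells, the thin gas-exchange cells, moved the same way as Wif1. All 10 were lower in knockout libraries without overlap, 3 of them (Aqp5, Pdpn and Clic5) passed the edgeR test, none was at 0, and their summed level was 6596 to 7136 CPM in wild type and 4572 to 5423 in knockout libraries. All 10 smooth muscle and myofibroblast markers had lower point values, and 0 passed (1 at an unadjusted p under 0.05), with sums of 981 to 1495 and 864 to 1037 CPM that overlapped. That sum was highest in wild type 1, at 1495 CPM against 1076 and 981 in wild type 2 and 3. The 10 ciliated cell markers likewise had lower point values with 0 passing (3 at an unadjusted p under 0.05), and sums of 226 to 378 and 156 to 245 CPM. Mesothelial markers, 9 genes, had 6 lower point values with 0 passing (1 at an unadjusted p under 0.05). Their sums of 585 to 718 and 406 to 580 CPM did not overlap. Over all genes, 10.7% had an unadjusted p under 0.05 and 8.45% were lower without overlap. Of 10 adventitial fibroblast markers, 8 had lower point values (median log2 fold change -0.33) and 1, Ly6a, passed (-1.01, edgeR adjusted p 0.037). At an unadjusted p under 0.05, 2 were lower and 1 higher, and the sums of 991 to 1152 and 906 to 1004 CPM overlapped. Among 10 alveolar fibroblast markers, 7 had lower point values with 0 passing (1 lower at an unadjusted p under 0.05). Their sums of 5447 to 5606 and 4772 to 5355 CPM did not overlap. Among 10 endothelial markers, 7 had lower point values with 0 passing (3 lower at an unadjusted p under 0.05). Their sums of 2443 to 2891 and 2332 to 2498 CPM overlapped. Lower without overlap were 1 smooth muscle, 2 ciliated, 1 mesothelial, 2 adventitial fibroblast, 3 alveolar fibroblast and 3 endothelial markers. Higher without overlap were 1 adventitial and 1 alveolar fibroblast marker, and 0 smooth muscle, ciliated, mesothelial or endothelial markers. The sums of 10 general epithelial markers overlapped, at 1570 to 1744 and 1619 to 1723 CPM. Of these markers, 5 had higher and 5 lower point values, with 2 each way at an unadjusted p under 0.05. Without overlap, 3 were higher and 2 lower, and 0 passed. The sums of 10 alveolar type 2 markers overlapped too, at 20520 to 22850 and 20490 to 25510 CPM. In that list 7 point values were higher and 3 lower, with 3 higher and 0 lower at an unadjusted p under 0.05. Without overlap, 3 were higher and 1 lower, and 0 passed. Over all genes, 8.6% were higher without overlap. In whole lungs, fewer cells of a type and less RNA per cell cannot be told apart. The part of these cells in the Wif1 result was not tested.

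Dkk3, a Dickkopf family member, was at 94.7, 93.9 and 87.7 CPM in wild type and 84.1, 90.2 and 80.9 CPM in knockout libraries, with 1 knockout library inside the wild-type range. Its log2 fold change was -0.12 (edgeR adjusted p 0.579). Sfrp1, which binds Wnt proteins through a frizzled-like domain, was at 29.8, 19.1 and 25.2 CPM against 12.6, 26.6 and 15.3 CPM. Knockout 2 lay inside the wild-type range and the other knockout libraries below it, and without that library the log2 fold change went from -0.44 to -0.82 (adjusted p 0.226). Dkk2, which binds LRP5 and LRP6, was at 2.193 to 5.33 CPM with no separation of the genotypes. Sfrp2, a relative of Sfrp1, had 39.2 CPM in knockout 2 and 14.3 to 24.6 in the other libraries. Its log2 fold change of 0.30 became -0.19 without knockout 2.

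**Figure D2:**
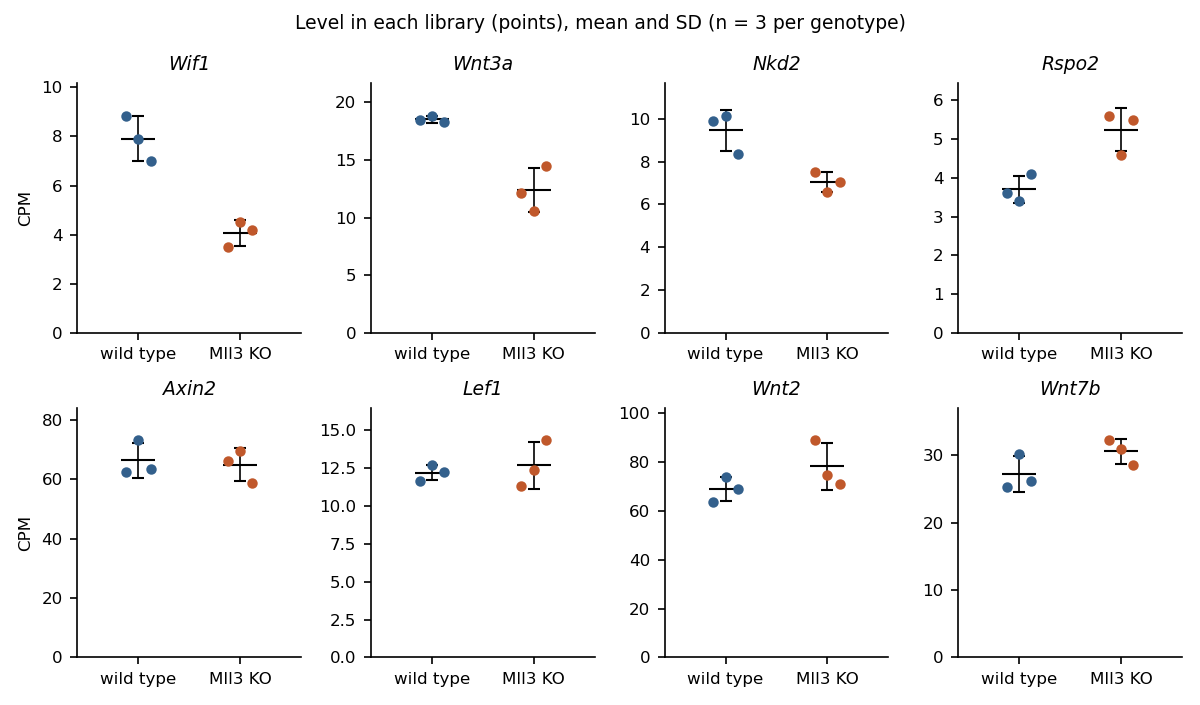
Level of 8 members in CPM (y axis) in each library, with the mean and SD of 3 libraries per genotype. Wif1, Wnt3a and Nkd2 are lower and Rspo2 is higher in the 3 knockout libraries without overlap, while Axin2, Lef1, Wnt2 and Wnt7b overlap.

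The ligands showed 1 gene with separated genotypes, Wnt3a, a canonical ligand. The gene spans chr11:59248033-59290752 on the minus strand. Its level was 18.47, 18.86 and 18.29 CPM in wild type (409, 433 and 389 reads) and 12.1, 10.6 and 14.5 CPM in knockout libraries (290, 217 and 310 reads). The wild-type libraries lay within 1 CPM of each other and all above the knockout libraries. The log2 fold change was -0.58 (95% interval -0.85 to -0.31), and the edgeR adjusted p of 0.0886 did not pass. It passed in DESeq2 (0.00812), with no filter on low counts (0.00116) and with the prefix as a term (0.0328). Within the prefixes the log2 difference was -0.62 and -0.56, with signs that the separation of all libraries fixed in advance. Over the 6 fits without 1 library the log2 fold change ran from -0.71 to -0.48 and the adjusted p from 0.0799 to 0.318.

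Wnt2, the mesenchymal ligand, was at 63.9, 74.1 and 69.2 CPM in wild type and 89.0, 74.8 and 71.0 CPM in knockout libraries. Only knockout 1 stood well above the wild-type range, and the log2 fold change of 0.18 (edgeR adjusted p 0.528) dropped to 0.08 without it. Wnt7b, the epithelial ligand, was at 25.2, 30.2 and 26.2 CPM against 32.2, 31.0 and 28.5 CPM, with overlap and a log2 fold change of 0.17 (adjusted p 0.574). Wnt5a was at 73.2, 83.6 and 83.1 CPM against 74.0, 85.5 and 78.4 CPM. Its log2 fold change was -0.01, with a 95% interval of -0.19 to 0.16.

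Wnt2b, the relative of Wnt2, was at 4.47, 3.27 and 3.24 CPM in wild type and 4.81, 8.61 and 4.20 CPM in knockout libraries. Knockout 2 was the high library, and the log2 fold change of 0.68 (edgeR adjusted p 0.424) became 0.30 without it. Wnt4 was high in wild type 1 alone, at 13.7 CPM against 2.22 to 4.94 in the other 5 libraries. Its log2 fold change of -1.13 became -0.26 without wild type 1. These are the libraries in which markers of squamous epithelium (wild type 1) and of skeletal muscle (wild type 1 and knockout 2) were high. Krt13, a squamous keratin, was at 224 CPM in wild type 1 and 0.349 to 1.08 elsewhere, and Sprr3 was at 0 in the other 5 libraries. Acta1, skeletal muscle actin, was at 94.8 CPM in wild type 1, 112.5 in knockout 2 and 2.60 to 4.88 elsewhere. The part of these tissues in the levels of Wnt4, Wnt2b and Sfrp2 was not tested. The other 5 tested ligands, Wnt5b, Wnt6, Wnt7a, Wnt9a and Wnt11, had log2 fold changes of -0.17 to 0.12, all with overlap. The 95% intervals of Wnt7a, Wnt9a and Wnt11 lay within ±0.5, and that of Wnt5b ran from -0.37 to 0.60. Wnt6, at 3 to 22 reads per library, was not resolved. Its interval ran from -1.335 to 1.563, and without 1 library its log2 fold change ran from -0.32 to 0.945.

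**Figure D3:**
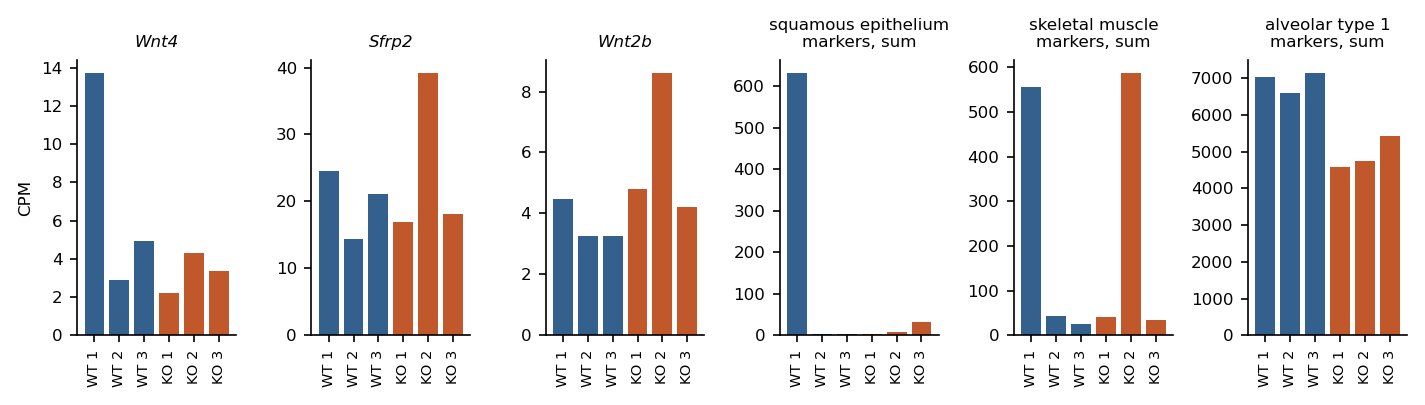
Level in each library (CPM, bars, wild type in blue and knockout in orange) of Wnt4, Sfrp2 and Wnt2b, and the summed CPM of 3 marker lists. Wnt4 and the squamous sum are high in wild type 1, Sfrp2 and Wnt2b in knockout 2, and the skeletal muscle sum in both.

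Compared per kilobase of exon, which allows levels of different genes to be set side by side, Wnt2 had the highest level of the ligands at 32.7 ± 3.76 CPM per kilobase (SD over 6 libraries), above Wnt5a at 10.2 ± 0.668. Wnt7b (5.90 ± 0.564) and Wnt3a (5.60 ± 1.30) came next and overlapped each other, followed by Wnt7a at 3.06 ± 0.332. Wnt9a, Wnt5b, Wnt11, Wnt4 and Wnt2b followed at 2.38 to 1.14 with each neighbour overlapping the next, and Wnt6 (0.251) and Wnt10b (0.113) were the lowest. The summed ligand level was 64.1, 67.8 and 64.1 CPM per kilobase in wild type and 70.4, 67.2 and 63.0 in knockout libraries, with overlap. Wnt2 made up 46.9 ± 2.33% of that sum in wild type and 51.8 ± 3.68% in knockout libraries (n = 3 each). Wnt3a made up 10.3 ± 0.182% and 6.76 ± 1.37%, and its rank against Wnt7b differed between the genotypes: it was above Wnt7b in the 3 wild-type libraries and below it in the 3 knockout libraries. That order depends on the exon lengths used, 2761 bases for Wnt3a and 4898 for Wnt7b. In CPM, Wnt7b was above Wnt3a in all 6 libraries. The shares and the rank are a description without a test.

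**Figure D4:**
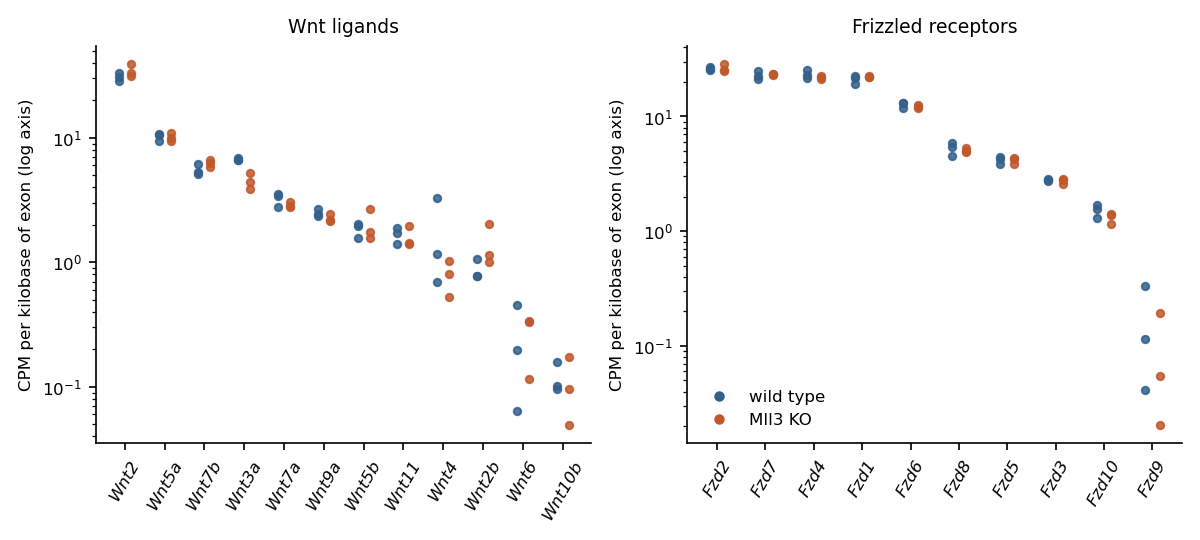
Level per kilobase of exon (log axis) of the 12 ligands and 10 frizzleds, each point a library. Wnt2 stands above the other ligands, Fzd2 is the highest receptor, followed by Fzd7, Fzd4 and Fzd1 with overlapping ranges, and Wnt3a is the ligand with separated genotypes.

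R-spondins bind LGR receptors and keep frizzleds on the cell surface by removing ZNRF3 and RNF43. Rspo2 (chr15:43020794-43170826, minus strand) was at 3.61, 3.40 and 4.09 CPM in wild type and 5.61, 4.60 and 5.51 CPM in knockout libraries, so each knockout library was above each wild-type library. The log2 fold change of 0.50 (95% interval 0.13 to 0.87) had an edgeR adjusted p of 0.286 and passed under no alternative. Rspo3 was at 1.40, 0.218 and 0.752 CPM against 0.544, 1.71 and 0.747 CPM. Wild type 1 and knockout 2 were again its highest libraries, and its log2 fold change was 0.33 (95% interval -1.17 to 1.83).

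The frizzled receptors did not separate the genotypes. All 9 tested genes overlapped between the genotypes and 0 passed in edgeR (0 at an unadjusted p under 0.05, and 0 in DESeq2), with log2 fold changes of -0.20 to 0.07. Fzd4, the receptor of Norrin as well as of Wnt proteins, was at 155, 172 and 146 CPM in wild type and 148, 153 and 144 CPM in knockout libraries. Fzd1 was at 80.5, 91.3 and 94.4 CPM against 93.8, 93.1 and 92.8 CPM. Fzd10, the lowest tested receptor, was at 5.46, 4.27 and 5.03 CPM against 4.52, 4.55 and 3.73 CPM. Its interval of -0.58 to 0.17 was the widest of the 9, and that of each of the other 8 lay within ±0.5. Per kilobase, Fzd2 (26.3) was the highest receptor in each of the 6 libraries. Its range of 24.9 to 28.9 met those of Fzd7 (23.1) and Fzd4 (22.8) but not that of Fzd1 (21.7), whose highest library was at 22.5. The ranges of Fzd7, Fzd4 and Fzd1 overlapped, and below them came Fzd6 (12.4), Fzd8 (5.18), Fzd5 (4.15), Fzd3 (2.77), Fzd10 (1.41) and Fzd9 (0.126), each clear of the next.

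The co-receptors Lrp5 and Lrp6, which pair with frizzleds in the canonical branch, overlapped as well. Lrp5 was at 150, 159 and 151 CPM in wild type and 148, 164 and 175 CPM in knockout libraries. Lrp6 was at 220, 244 and 242 CPM against 212, 248 and 244 CPM. The log2 fold changes were 0.08 and -0.003. Wls, which carries Wnt proteins to the cell surface, was at 259, 265 and 262 CPM in wild type and 285, 266 and 274 CPM in knockout libraries. These groups did not overlap, but the log2 fold change was 0.07 (95% interval -0.07 to 0.21, edgeR adjusted p 0.743). Porcn, the enzyme that adds the lipid to Wnt proteins, was at 14.7, 12.9 and 14.3 CPM against 13.2, 15.7 and 12.9 CPM, with overlap.

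Of the feedback inhibitors, which are induced by the canonical branch, Nkd2 alone had separated genotypes. Nkd2 (chr13:73818534-73847631, minus strand) binds Dishevelled. It was at 9.89, 10.2 and 8.37 CPM in wild type and 7.53, 6.56 and 7.05 CPM in knockout libraries. The log2 fold change was -0.43 (95% interval -0.72 to -0.13) with an edgeR adjusted p of 0.259, and it passed under no alternative. Axin2, a scaffold of the destruction complex and a widely used readout of canonical signalling, was at 62.6, 73.2 and 63.6 CPM against 66.3, 69.5 and 58.7 CPM. The genotypes overlapped, and the 95% interval of its log2 fold change ran from -0.23 to 0.16 around -0.03.

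Notum, an enzyme that removes the lipid from Wnt proteins, was at 14.9, 13.9 and 11.7 CPM in wild type and 15.2, 14.6 and 18.52 CPM in knockout libraries (log2 fold change 0.26, edgeR adjusted p 0.519). Rnf43, a ubiquitin ligase that removes frizzleds, was at 27.3, 31.3 and 37.2 CPM against 35.7, 37.5 and 36.8 CPM (0.20, adjusted p 0.562). Both overlapped between the genotypes. Nkd1, the relative of Nkd2, and Znrf3, the relative of Rnf43, had log2 fold changes of -0.04 and 0.05.

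The nuclear effectors, which act on target genes, overlapped between the genotypes and had short intervals. Lef1 was at 11.7, 12.7 and 12.2 CPM in wild type and 11.3, 12.4 and 14.3 CPM in knockout libraries, with a 95% interval of -0.21 to 0.32 for the log2 fold change. Tcf7 was at 47.4, 52.9 and 45.5 CPM against 54.5, 44.2 and 46.5 CPM. Tcf7l2 was at 27.6, 28.2 and 30.4 CPM against 25.9, 34.8 and 32.0 CPM. Ctnnb1, which encodes beta-catenin, was at 1114, 1114 and 1088 CPM against 1198, 1027 and 1082 CPM, a log2 fold change of -0.004 (95% interval -0.19 to 0.18). Beta-catenin is regulated mainly at the protein level, which these data do not measure.

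**Figure D5:**
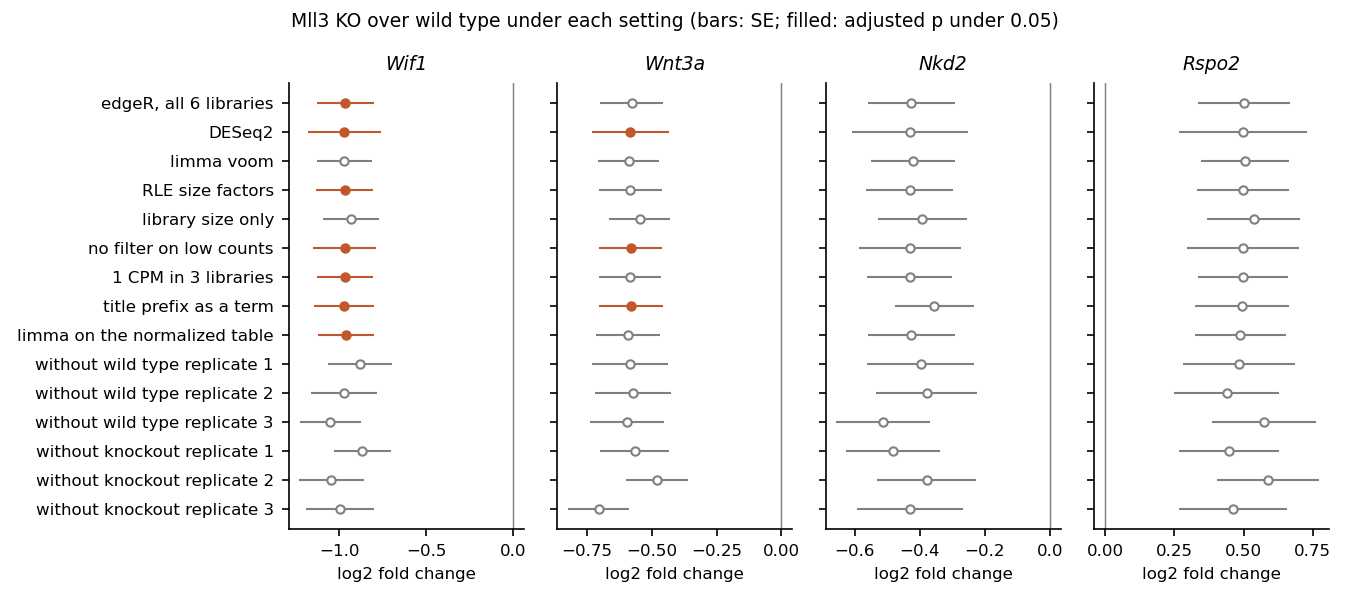
Log2 fold change of Wif1, Wnt3a, Nkd2 and Rspo2 (x axis, bars are SE) under each setting, filled where the adjusted p was under 0.05. No setting changes a sign, Wif1 is filled in 7 of 15 settings and Wnt3a in 3.

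A wider list of 124 other genes of the pathway held 103 that were tested, and 0 passed in either direction in edgeR, 7 had an unadjusted p under 0.05 (3 higher and 4 lower, 6.80% against 10.7% of all genes), and the median log2 fold change was 0.0369. DESeq2 called 1 higher and 2 lower, where it called 0.326% and 1.55% of all genes, and limma voom called 0. Without overlap, 8 were higher and 6 lower (7.77% and 5.83%), against 8.6% and 8.45% of all genes. Tspan12, a tetraspanin that assists Norrin signalling through Fzd4, had the lowest p. It was at 55.0, 47.8 and 52.7 CPM in wild type and 38.4, 37.0 and 39.4 CPM in knockout libraries, with all knockout libraries lower, a log2 fold change of -0.44 and an edgeR adjusted p of 0.0548. Tle2, a Groucho co-repressor that binds TCF factors, was at 61.4, 67.3 and 56.2 CPM against 77.5, 77.7 and 80.9 CPM (log2 fold change 0.35, adjusted p 0.097). Prickle1, of the planar polarity branch, was at 94.9, 99.2 and 81.5 CPM against 71.9, 73.1 and 72.1 CPM (-0.34, adjusted p 0.114). These 3 are the genes DESeq2 called. Ccdc88c, which encodes a Dishevelled-binding protein, was at 129, 144 and 168 CPM against 169, 171 and 179 CPM (0.23, adjusted p 0.383). Vps35, a retromer subunit that recycles Wls, was at 234, 226 and 232 CPM against 212, 197 and 215 CPM (-0.15, adjusted p 0.439).

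The known targets in the wider list did not separate the genotypes. Of 24 listed target genes, 20 were tested. None of them passed in edgeR or in DESeq2, and the count at an unadjusted edgeR p under 0.05 was 0. The median log2 fold change of the 20 was 0.0554, with 14 point values above 0 and 6 below. Sp5, a transcription factor gene used as a readout beside Axin2, was at 6.28, 7.76 and 7.19 CPM in wild type and 8.999, 7.778 and 6.952 CPM in knockout libraries (log2 fold change 0.16, adjusted p 0.755). By role, 0 of 15 tested co-receptors and modulators, 0 of 5 antagonists, 0 of 2 R-spondins, 0 of 23 cytoplasmic, 0 of 16 nuclear, 0 of 14 planar polarity and 0 of 8 secretion genes passed. The 7 remaining Wnt ligand genes were all too low to be tested.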

How the data were processed

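Whole-lung RNA of 6 libraries was sequenced as 75-base single reads, per the labels' protocols. Per the submitters' processing notes, the tools were bcl2fastq 2.19.1, GSNAP, featureCounts 1.6.3 and DESeq2 1.24.0, and the build mm10. Raw gene counts were deposited, made per the file headers with strand setting 2 and a mapping quality of at least 1, so reads of near-identical genes are mostly lost. The other deposited file gives a normalized signal, these counts divided by the authors' size factors. Multiplied back, 100% of its genes in every library gave the counts within 0.1 read.

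Genes were filtered with filterByExpr and tested in edgeR 4.0.16 (R 4.3.3; TMM, robust quasi-likelihood, genotype only, Benjamini-Hochberg, threshold 0.05). A standard error is the absolute log2 fold change over the square root of F, and the 95% intervals are not adjusted for the number of genes. The fit was tested on simulated data. Alternatives were DESeq2 1.42.0, limma voom (limma 3.58.1), other scaling and filters, the title prefix as a term, limma on log2 of the deposited signal plus 1, leaving out each library and other thresholds. Levels per kilobase use the exon lengths of the count table. The members and gene lists were chosen with earlier results of these data known. Values in every library are given for members past the threshold, the 3 lowest p among ligands, frizzleds, antagonists and feedback inhibitors, all of the small roles and Axin2, Lef1, Wnt2, Wnt5a, Wnt7b and Fzd10 and for the 5 other pathway genes with the lowest p. Wnt4, Sfrp2 and Sp5 were named after their values were seen.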

Additional observations from a re-analysis of the deposited data

How the results depend on the processing

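The low members rest on few reads: 1 CPM stood for 20.4 to 23.9 reads, and Wnt6, Rspo3, Wnt10b and Fzd9 are near or under it. A library held 3 to 22 reads of Wnt6, 5 to 35 of Rspo3, 4 to 12 of Wnt10b and 1 to 17 of Fzd9. The part of counting error in that spread was not tested. Over all genes, 12 were called higher and 58 lower in edgeR. The counts higher and lower were 62 and 295 with DESeq2, 0 and 8 with limma voom, 103 and 340 with no filter, 142 and 483 with a term for the title prefix, 0 and 2 at an adjusted p under 0.01, 33 and 135 at 0.1, and 0 to 5 and 0 to 36 without 1 library. Members called lower numbered 1 in edgeR, 2 with DESeq2, with no filter, with the prefix term and at 0.1, and 0 with limma voom, with library size only, at 0.01 and without any 1 library. No member was called higher in these settings. Of the other pathway genes, 0 were called in edgeR, and the counts higher and lower were 1 and 2 with DESeq2, 1 and 2 with no filter, 0 and 1 at 1 CPM in 3 libraries, 1 and 1 with the prefix term, 0 and 1 with limma on the normalized signal, and 1 and 1 at 0.1. The cause of these differences was not tested. Of the 46 members and pathway genes followed, 26 kept their sign in every alternative and 20 took another sign in at least 1. Scaling by library size only moved the median log2 fold change of all genes from 0.01 to 0.044. The term for the title prefix was the only block fitted. The labels do not state that the prefix pairs samples, and they give no replicate numbers.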
